A study of Mus musculus with 2 samples.

Results

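The genes described here encode collagens, laminins, matrix metalloproteinases (MMPs), tissue inhibitors of metalloproteinases (TIMPs), fibronectin and fibrillins, the main structural proteins of the extracellular matrix and the enzymes that cut it. They were chosen by symbol alone from the protein-coding genes of the GENCODE M21 annotation, which gave 85 of 21951 genes on 20 chromosomes: 44 collagen genes, 11 laminin genes, 22 MMP genes, 4 TIMP genes, Fn1, Fbn1 and Fbn2. The 85th symbol, Col4a3bp, fits the same pattern but encodes a ceramide transfer protein and no matrix component. It is counted in the totals over the 85 genes but in none of the families. TET2 binding was measured by ChIP-seq, which sequences the DNA recovered with an antibody against a chromatin protein, in 1 TET2 library and 1 input library. The cells were adipose-derived stem cells of mouse inguinal white fat, used at passage 3 and turned into adipocytes with IBMX, dexamethasone and insulin. The labels attach no genotype, strain, treatment group or age to either library, and the number of animals behind the cells is not given in the sources used here. Peaks are intervals in which fragments of the TET2 library exceeded the background, each with a −log10 p from the authors' peak caller. With 1 library there is no replicate error, so no p-value was computed between genes, and every interval given covers counting error only. A peak list does not measure RNA, so whether a gene was expressed in these cells, and whether adipocyte markers were, cannot be read from it.

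TET dioxygenases oxidise methylated cytosine, mostly at CpG dinucleotides, to hydroxymethylcytosine, and TET2 lacks the CXXC DNA-binding domain of its relatives TET1 and TET3. Adipocytes sit in a pericellular basement membrane of collagen IV and laminin, surrounded by collagen VI and by fibrillar collagens, fibronectin and fibrillin microfibrils. This matrix is remodelled as fat cells enlarge, by MMPs that cut it and TIMPs that block the MMPs.

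A peak midpoint within 1 kb of a transcription start site (TSS) of any transcript is called a promoter peak below. Of the 85 genes, 25 had one, or 29.4% (exact 95% binomial interval 20% to 40.3%), against 24.6% of all protein-coding genes. At 1 to 3 kb from a TSS 6 genes had a peak (7.06%, interval 2.63% to 14.7%, background 5.05%). In an internal exon, neither the first nor the last of a transcript, 4 genes had one (4.71%, 1.30% to 11.6%, background 2.33%), and in an intron 8 genes (9.41%, 4.15% to 17.7%, background 8.16%). At least 1 of these 4 classes held a peak in 38 genes, or 44.7% (33.9% to 55.9%), where the whole annotation gave 34.5%. Without Col4a3bp these 2 counts are 24 and 37. Each of the 5 intervals over the 85 genes holds its background share. Matrix genes are also large, with a median length of 54.7 kb and 35 exons against 17.4 kb and 7 exons over all protein-coding genes. Their median number of distinct TSSs is 4, against 3 over all protein-coding genes.

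The 38 genes held 50 distinct peaks in the 4 classes: 27 within 1 kb of a TSS, 7 at 1 to 3 kb, 4 in internal exons and 12 in introns. A single peak between Col4a3 and Col4a4 serves both genes. One peak was found at 29 of the genes, 2 peaks at 7 genes, and 3 or more at Col18a1 and Col23a1. Another 3 peaks, at Col6a2 and Timp3, lay in a last exon and are outside the 4 classes. Promoter peaks were 50.9% of the 53 peaks (36.8% to 64.9%), close to the 54.7% over the peaks of all protein-coding genes.

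**Figure D1:**
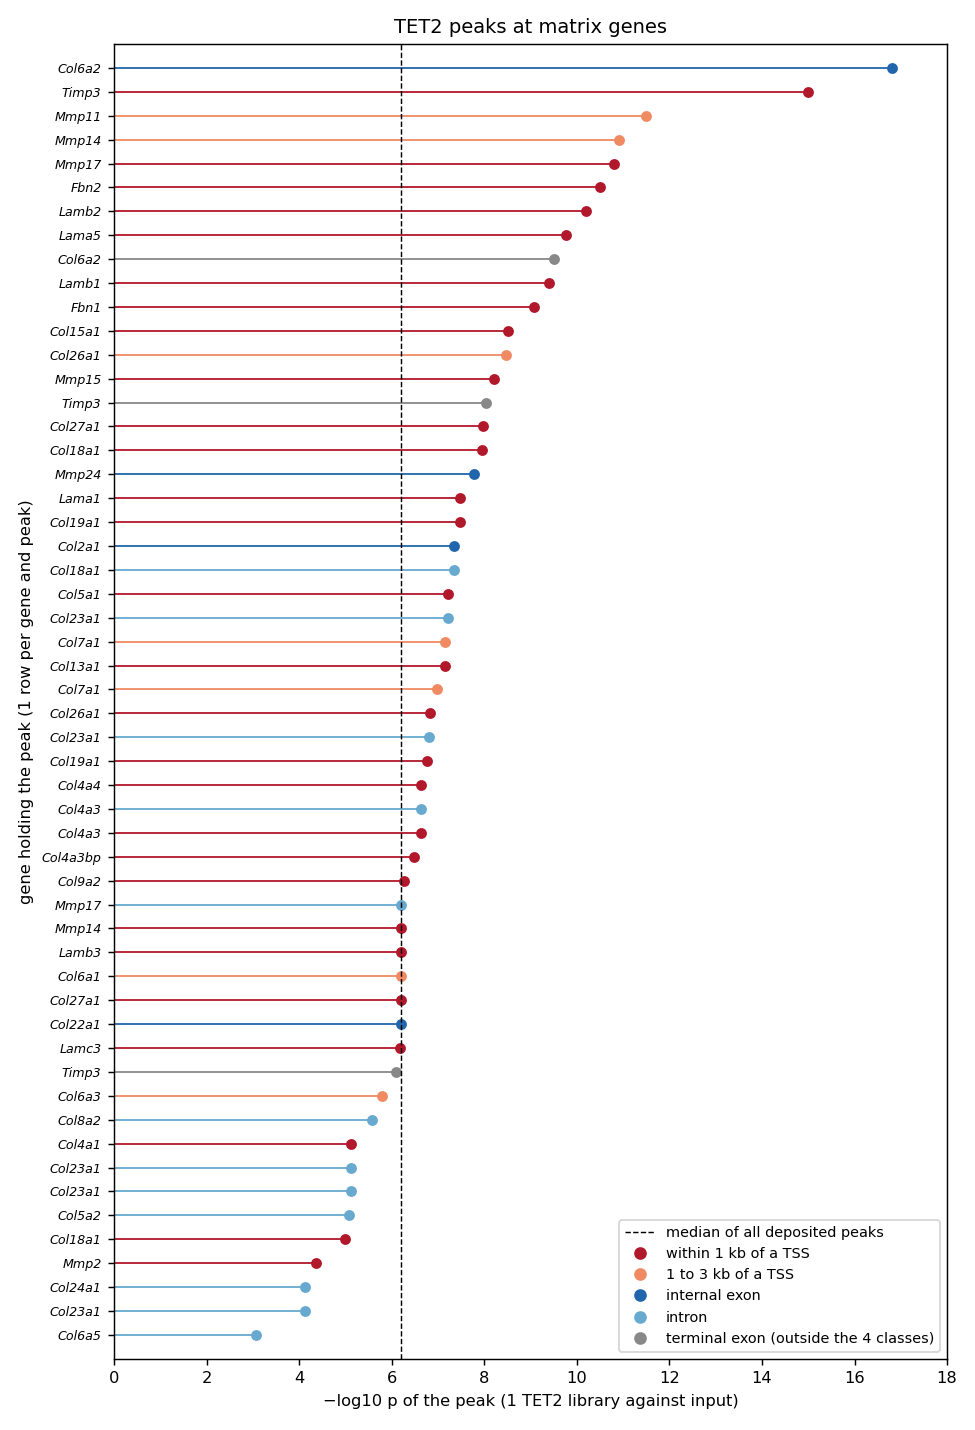
The −log10 p (horizontal axis, linear scale) of each TET2 peak at a matrix gene, with 1 row per gene and peak and the colour giving the position class. The dashed line is the median over all 14103 deposited peaks, 6.21, and the peaks at Col6a2 and Timp3 stand furthest to the right, at 16.8 and 15.0.

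The −log10 p of the 50 peaks ran from 3.07 to 16.8 with a median of 6.90, against a median of 6.49 over the peaks of all protein-coding genes in the same classes. By class the medians were 7.21 within 1 kb of a TSS, 7.16 at 1 to 3 kb, 7.56 in internal exons and 5.36 in introns. The corresponding medians over all protein-coding genes were 6.83, 6.47, 7.05 and 6.04. Intron peaks were thus the weakest class in both sets. Values of 10 or more belonged to 7 of the 50 peaks, at Col6a2, Timp3, Mmp11, Mmp14, Mmp17, Fbn2 and Lamb2. Values below 5 belonged to 4 peaks, at Mmp2 (4.36), Col23a1 and Col24a1 (4.12 each) and Col6a5 (3.07). The peak at Col6a5 is at the low end of the whole list, in which 99.8% of the peaks are larger.

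Collagen VI forms beaded microfilaments, and the Col6a2 chain carries the peak with the largest −log10 p of any matrix gene. Col6a2 (ENSMUSG00000020241) lies on the minus strand of chromosome 10 from 76595762 to 76623630 of GRCm38. Its peak, from 76614299 to 76614909, has a −log10 p of 16.8, and its midpoint is in coding exon 3 of 28, 9026 bp downstream of the TSS. None of the other peaks that were placed in an internal exon of a protein-coding gene, 546 with this one, has a larger value, and 0.518% of all deposited peaks do. A further peak with 9.51 lies in the last exon, exon 28, at 26984 bp. Over its 611 bp the exon 3 peak holds 34 CpGs, or 5.56 per 100 bp, and no repeat-masked base. Its central 300 bp are shown because they carry this value inside coding sequence far from the promoter, in the direction of transcription with each CpG in capitals (chr10:76614454-76614753, GRCm38, minus strand, 19 CpGs):
Col6a2 exon 3: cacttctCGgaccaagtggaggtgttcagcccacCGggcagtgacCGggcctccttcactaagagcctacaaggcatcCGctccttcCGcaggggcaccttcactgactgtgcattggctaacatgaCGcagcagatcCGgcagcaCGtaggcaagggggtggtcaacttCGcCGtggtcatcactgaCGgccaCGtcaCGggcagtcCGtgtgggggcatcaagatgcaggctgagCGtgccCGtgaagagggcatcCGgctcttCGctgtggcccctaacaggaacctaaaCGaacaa

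Among the other collagen VI genes, Col6a1 had a peak with 6.21 in coding exon 3 of 35, 2681 bp from its TSS. Col6a3 had one with 5.78 in coding exon 37 of 41, which counts as 1 to 3 kb only because a noncoding transcript starts 2447 bp from it. At Col6a5 the peak lies in intron 1, and Col6a4 and Col6a6 had none. All 4 peaks in the 4 classes thus lie inside the gene bodies, and no collagen VI gene of 6 had a promoter peak (exact upper limit 45.9%). The promoters of Col6a1, Col6a2 and Col6a3 have CpG ratios (observed over expected CpGs, from 250 bp upstream to 50 bp downstream of the TSS) of 0.285, 0.253 and 0.177, and those of Col6a4, Col6a5 and Col6a6 of 0.405, 0.374 and 0.435. The median over the matrix genes without a promoter peak is 0.379, which lies between these values. Col6a2, Col6a1 and Col18a1 are near each other on chromosome 10, and the 571 kb from Col6a2 to Col18a1 hold 7 peaks, 6 of them in these genes. That is 12.3 peaks per Mb against 5.29 over chromosome 10, a comparison chosen after the values were seen.

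TIMP3 is the inhibitor that binds tightly to the matrix, and Timp3 (ENSMUSG00000020044, plus strand, chromosome 10 from 86300372 to 86349506) has the largest promoter peak of the matrix genes. That peak, from 86300539 to 86300972, has a −log10 p of 15.0 and a midpoint 199 bp from the nearest TSS and 383 bp from that of the principal coding transcript. In the same class 40 of 5170 peaks are larger (0.774%). It contains 32 CpGs, 7.37 per 100 bp, and no repeats. The part of the peak from the start codon on, all in exon 1, is shown because this is the strongest promoter peak (chr10:86300854-86300972, GRCm38, plus strand, 5 CpGs in capitals):
Timp3 exon 1: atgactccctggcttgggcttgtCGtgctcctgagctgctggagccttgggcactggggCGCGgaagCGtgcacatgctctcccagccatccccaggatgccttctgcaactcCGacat

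Beyond its promoter, Timp3 has 2 peaks in its last exon at 46003 and 47669 bp, with 8.03 and 6.09, where the CpG content falls to 0.900 and 1.08 per 100 bp. Timp3 lies inside Syn3, which is transcribed from a TSS 191142 bp from the promoter peak. Timp1, Timp2 and Timp4 had no peak in any class, and the nearest midpoint to a TSS of theirs was 182 kb, 63.1 kb and 164 kb away. Their promoter CpG ratios are 0.384, 0.576 and 0.104, against 0.710 at Timp3, so the TIMP gene with a peak is the one with the most CpG-rich promoter.

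**Figure D2:**
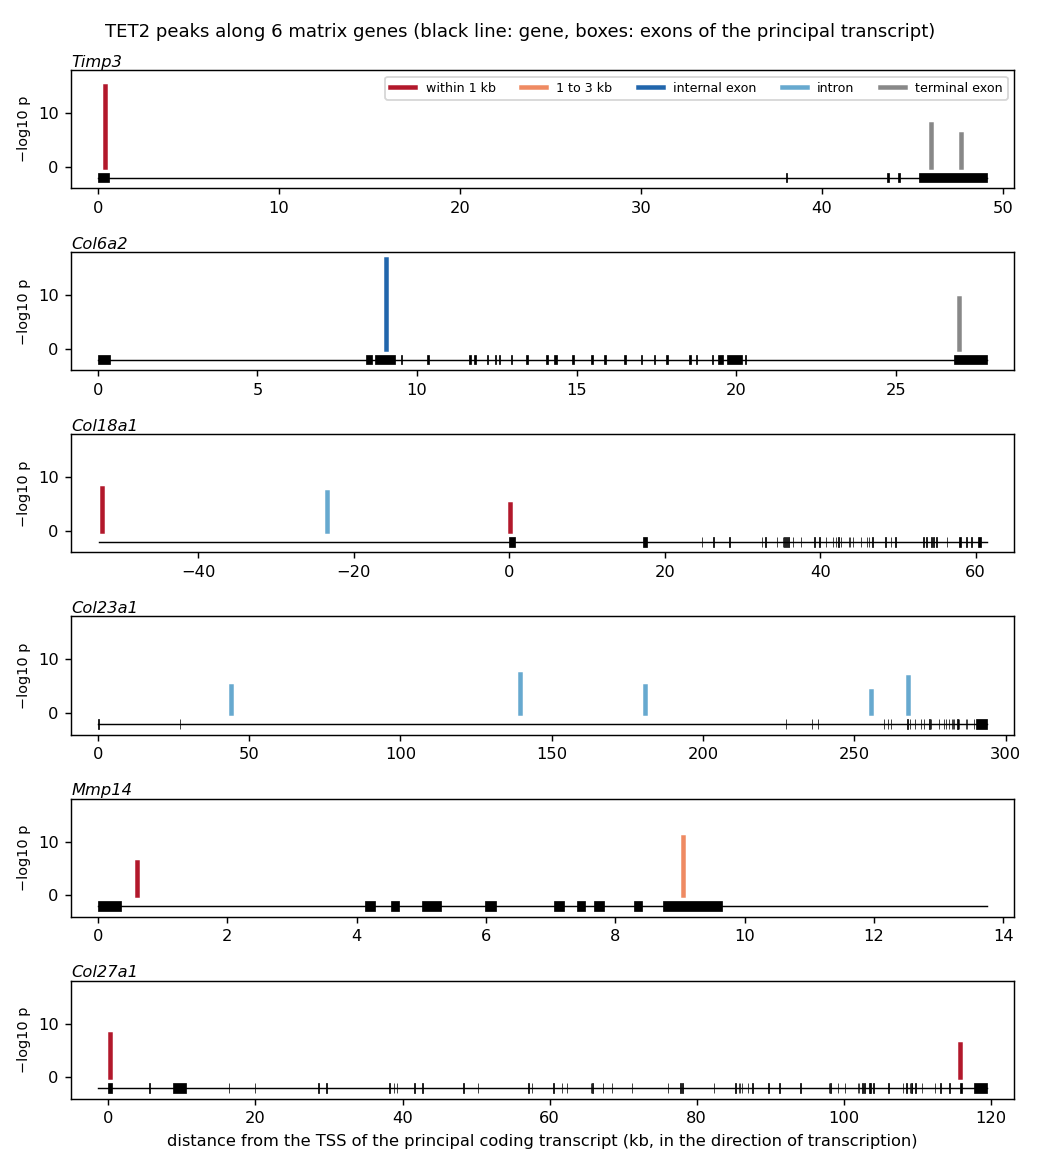
TET2 peaks along Timp3, Col6a2, Col18a1, Col23a1, Mmp14 and Col27a1, with the distance from the TSS of the principal transcript in kb on the horizontal axis and the −log10 p of each peak as the height of its bar. The strongest bars stand at the start of Timp3 and in exon 3 of Col6a2, whereas the 5 bars of Col23a1 are spread through its introns.

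Laminins are trimers of an alpha, a beta and a gamma chain that polymerise into the basement membrane. Of the 11 laminin genes 6 had a promoter peak, or 54.5% (23.4% to 83.3%), an interval that also holds the background of 24.6%, and no laminin gene had a peak in any other class. Lama5, Lamb1, Lamb2, Lamb3, Lama1 and Lamc3 were the 6, with −log10 p of 9.76, 9.39, 10.2, 6.21, 7.48 and 6.18. All 3 beta chains are among them, but only Lamb1 has its peak at the start of its principal transcript, 441 bp downstream of that TSS. At Lamb2 the peak is in coding exon 28 of 33, 8728 bp into the gene, and counts as a promoter peak through a noncoding transcript 292 bp away. The Lamb3 peak lies in intron 2, at 64803 bp, and also inside G0s2, 689 bp from the TSS of that gene, which encodes an inhibitor of the fat cell lipase ATGL. Lama1, Lama5 and Lamc3 had their midpoints at -83, -133 and -33 bp from the principal TSS. Lama5 is shown as a promoter whose peak is centred just upstream of the TSS (ENSMUSG00000015647, chr2:180225860-180226159, GRCm38, minus strand, the last base directly before the TSS, 21 CpGs in capitals):
Lama5 promoter: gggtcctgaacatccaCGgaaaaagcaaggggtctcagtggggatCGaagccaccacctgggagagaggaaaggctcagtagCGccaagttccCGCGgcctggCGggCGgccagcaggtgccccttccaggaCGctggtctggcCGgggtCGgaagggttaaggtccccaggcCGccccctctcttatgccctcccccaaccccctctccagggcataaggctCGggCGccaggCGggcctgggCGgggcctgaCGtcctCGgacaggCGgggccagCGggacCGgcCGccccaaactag

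Laminin alpha 4 is prominent in the membrane around adipocytes, where it pairs with beta 1 and gamma 1 chains. Of these 3 genes Lamb1 alone had a peak. Lama4 had its nearest midpoint 24.2 kb from a TSS and Lamc1 10.9 kb, the shortest distance of any gene in the set without a peak. Lama2, the alpha chain of muscle, had none within 293 kb, and Lama3 had none within 97.5 kb.

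Collagen IV is the network collagen of the basement membrane, and its 6 genes lie in pairs that are transcribed away from each other from a shared promoter. The TSSs of Col4a3 and Col4a4 are 127 bp apart on chromosome 1, and a peak with a −log10 p of 6.63 has its midpoint 33 bp from the point halfway between them. The TSSs of Col4a1 and Col4a2, the chains of most basement membranes, lie within 21 bp of each other on chromosome 8, and the peak nearest to them is 94.6 kb away. For Col4a5 and Col4a6 on chromosome X, 1309 bp apart, the nearest is at 916 kb. One of these 3 shared promoters thus holds a peak, and it is not the one with the most CpGs: the promoter CpG ratios are 0.475 and 0.489 for Col4a3 and Col4a4 but 0.902 and 0.818 for Col4a1 and Col4a2. The bases between the 2 start sites inside the Col4a3 and Col4a4 peak are shown because they belong to both promoters (chr1:82586850-82586975, GRCm38, written on the strand of Col4a3, 5 CpGs in capitals):
Col4a3 and Col4a4: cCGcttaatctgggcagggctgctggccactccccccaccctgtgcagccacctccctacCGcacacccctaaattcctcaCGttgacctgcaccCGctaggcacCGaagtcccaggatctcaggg

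Another peak with 6.63 lies in intron 43 of Col4a3, 116030 bp from its principal TSS. Col4a1 itself had a peak with 5.13 in intron 36 of 51, at 94605 bp, which is 952 bp from the start of a noncoding transcript and is counted as a promoter peak on that ground alone. At Col4a2 there was no peak.

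The fibrillar collagens build the load-bearing fibrils, and the genes of the most abundant of them had no peak. Col1a1, Col1a2 and Col3a1 were 47.2, 63.5 and 75.5 kb from the nearest midpoint. Of the 11 fibrillar genes, Col5a1 and Col27a1 had promoter peaks. Col5a1, which sets the diameter of collagen I fibrils, had one with 7.21 in intron 1, 626 bp downstream of its TSS. Col27a1 had 7.98 at 193 bp, in the untranslated part of exon 1, and a second peak with 6.21 in coding exon 60 of 61 at 115889 bp. Col2a1, the cartilage collagen, had 7.34 in coding exon 51 of 54. Col5a2 and Col24a1 had intron peaks with 5.07 and 4.12, and 97.1% of the bases of the Col5a2 peak are repeat-masked. Col5a3, Col11a1 and Col11a2 had no peak.

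COL15A1 and COL18A1 are the multiplexins, collagens of the basement membrane zone with attached sugar chains, and COL18A1 is the source of endostatin. Both genes had promoter peaks. At Col15a1 the −log10 p was 8.51 with a midpoint 86 bp downstream of the TSS and 11.2 CpGs per 100 bp, the highest CpG content among the peaks of the matrix genes. Col18a1 (ENSMUSG00000001435, minus strand, chromosome 10 from 77052178 to 77166548) had peaks at its principal TSS and at a coding TSS far upstream of it. The upstream one, from 77165666 to 77166633, had 7.94 with 62 CpGs, and the one at the principal TSS, from 77113278 to 77113856, had 5.00 with 18 CpGs. Between them lies an intron peak with 7.34, the largest value among the 12 intron peaks, at -23452 bp from the principal TSS. Its central 300 bp are shown as the strongest peak of the intron class (chr10:77137007-77137306, GRCm38, minus strand, 17 CpGs in capitals):
Col18a1 intron: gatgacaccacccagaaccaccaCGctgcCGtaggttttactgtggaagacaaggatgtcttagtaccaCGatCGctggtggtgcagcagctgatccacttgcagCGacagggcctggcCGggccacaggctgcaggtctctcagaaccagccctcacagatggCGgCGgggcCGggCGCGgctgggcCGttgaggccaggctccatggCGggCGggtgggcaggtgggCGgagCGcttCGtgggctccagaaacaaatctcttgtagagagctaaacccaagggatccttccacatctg

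Among the collagens that ride on fibrils, Col19a1 had 7.48 at 30 bp and 6.76 at 938 bp from its principal TSS. Col9a2 had 6.26 at 631 bp, and Col22a1 had 6.21 in coding exon 3 of 64. Col9a1, Col9a3, Col12a1, Col14a1, Col16a1 and Col20a1 had none. Of the 4 transmembrane collagens Col13a1 had a promoter peak with 7.16 in coding exon 1. Col23a1 had 5 intron peaks with 4.12 to 7.21 over a gene of 294 kb, and its promoter, with a CpG ratio of 0.700, had none. Of those 5 peaks 1 consists of repeat-masked bases to 90.7%. The remaining collagens with peaks were Col26a1 (6.82 at 273 bp, and 8.46 in intron 7, 2026 bp from a noncoding transcript), Col7a1, the anchoring fibril collagen of skin (6.98 in coding exon 11 and 7.16 in intron 107, both 1 to 3 kb from noncoding transcripts), and Col8a2 (5.58 in intron 2). In all, 11 of 44 collagen genes had a promoter peak, or 25.0% (13.2% to 40.3%), and 22 of 44 had a peak in any class (50%, 34.6% to 65.4%, background 34.5%). The lower bound of that last interval is just above the background. Matrix genes as a set are long and have more TSSs than other genes, and the share was not adjusted for either.

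Of the microfibril and adhesion proteins, both fibrillin genes had a promoter peak and fibronectin had none. Fbn2, the fibrillin of developing tissue, had 10.5 with a midpoint in coding exon 1, 784 bp from its principal TSS, in a promoter whose CpG ratio of 1.04 is the highest of the 85 genes. Fbn1 had 9.08 over a peak of 942 bp, 237 bp from a noncoding transcript and 2158 bp from the principal TSS, within a long first exon and also inside the gene model Gm9913. Fn1 was 489 kb from the nearest midpoint although its promoter has a CpG ratio of 0.809. Col4a3bp, the gene that is not a matrix gene, had 6.49 at 550 bp, and the TSS of the neighbouring Polk is 706 bp from that midpoint.

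**Figure D3:**
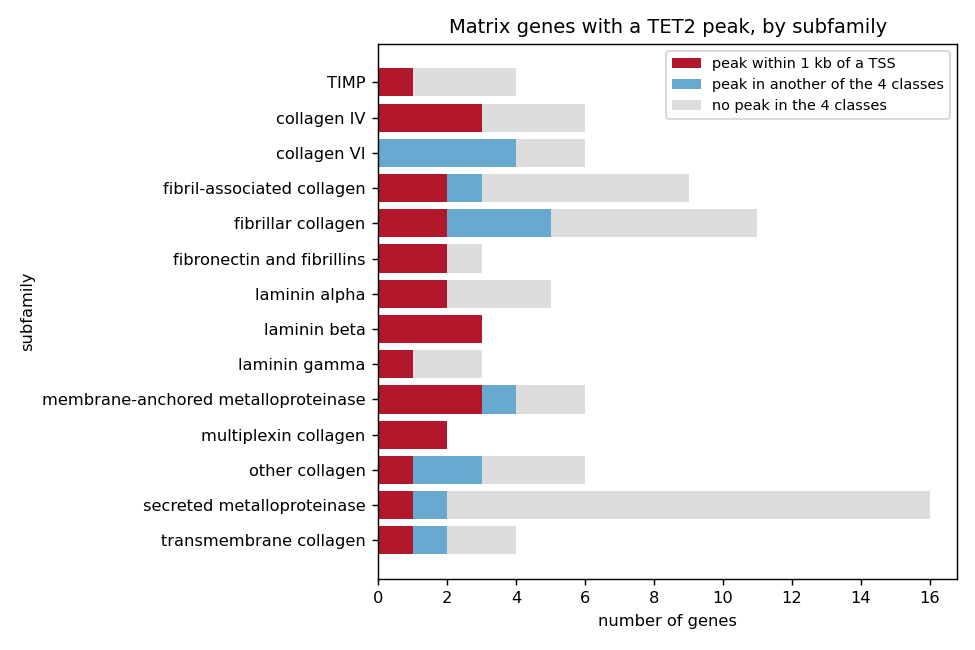
Number of genes of each subfamily (horizontal axis) with a TET2 peak within 1 kb of a TSS, with a peak in another of the 4 classes only, and with none, Col4a3bp left out. Peaks were found at all 3 beta laminins and both multiplexins, and at 2 of 16 secreted metalloproteinases.

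The MMPs fall into enzymes tethered to the cell surface and secreted enzymes. Of the 6 tethered enzymes Mmp14, Mmp15 and Mmp17 had a promoter peak. Mmp24 had no promoter peak but an internal exon peak with 7.78, in coding exon 6 of 9, and Mmp16 and Mmp25 had no peak in any class. MMP14 cuts collagen I at the surface of adipocytes and activates MMP2. Its gene had 6.21 in intron 1 at 604 bp and a stronger peak, 10.9, in the coding part of its last exon at 9047 bp, counted at 1 to 3 kb through a noncoding transcript. Mmp15 had 8.21 in coding exon 1. Mmp17 (ENSMUSG00000029436) had 10.8 in intron 1, over 892 bp with 86 CpGs, the most CpGs in any peak of the set, and 6.21 in intron 9. The centre of the intron 1 peak is shown as the strongest promoter peak of an MMP gene (chr5:129584710-129585009, GRCm38, plus strand, 36 CpGs in capitals):
Mmp17 intron 1: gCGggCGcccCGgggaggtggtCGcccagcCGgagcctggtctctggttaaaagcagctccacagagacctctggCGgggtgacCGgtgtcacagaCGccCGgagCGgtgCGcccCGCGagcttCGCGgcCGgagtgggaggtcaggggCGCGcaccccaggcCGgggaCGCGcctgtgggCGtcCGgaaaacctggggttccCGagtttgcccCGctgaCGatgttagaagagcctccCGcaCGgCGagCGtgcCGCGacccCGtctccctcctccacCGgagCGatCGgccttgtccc

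Among the 16 secreted enzymes, Mmp2 and Mmp11 had a peak. Mmp2, the gelatinase that MMP14 activates, had 4.36 at 324 bp in the untranslated part of exon 1, the weakest promoter peak of the matrix genes. The peak assigned to Mmp11, with 11.5, is 2697 bp from a noncoding Mmp11 transcript but lies inside Smarcb1, a chromatin remodelling subunit, 293 bp from that gene's TSS. Mmp9, the other gelatinase, was 14.2 kb from the nearest midpoint and Mmp12, the macrophage elastase, 160 kb. A cluster on chromosome 9, from 7272514 to 7699585, holds 9 secreted MMP genes (Mmp13, Mmp12, Mmp1b, Mmp3, Mmp10, Mmp8, Mmp27, Mmp20 and Mmp7). Its 427 kb hold 1 peak, which is in none of these genes, or 2.34 peaks per Mb against 6 over the chromosome. A count of 1 peak is too small to read as a difference between these rates, which was not tested. Over all 22 MMP genes 4 had a promoter peak, or 18.2% (5.19% to 40.3%, background 24.6%).

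Promoters of many secreted MMPs are known for a site of AP-1, the Fos and Jun factor that induces them. TGANTCA, an AP-1-like string in which N is any base, was searched on both strands from 250 bp upstream to 50 bp downstream of the principal TSS. It was found in 9 of 22 MMP promoters, or 40.9% (20.7% to 63.6%), in 1 of 44 collagen promoters (Col6a1), and in 6.63% of all protein-coding promoters. None of the 10 promoters belongs to a gene with a promoter peak. Of the 25 genes that have one, 0 matched (exact upper limit 13.7%), against 4.12% of all protein-coding genes with a promoter peak. The 9 MMP matches are shown with 10 bases each side, in the direction of transcription and with the match in capitals, because the promoters that share them hold no peak:
Mmp19: tctctctggcTGAGTCAcctcccactg
Mmp9: acacacacgcTGAGTCAgcataagcct
Mmp13: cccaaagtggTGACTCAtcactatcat
Mmp12: acatcaacagTGAGTCAgatagaggat
Mmp1b: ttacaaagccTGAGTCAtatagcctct
Mmp3: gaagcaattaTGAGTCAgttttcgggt
Mmp10: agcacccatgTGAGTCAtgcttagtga
Mmp20: atttgagacaTGAATCAtcacttacag
Mmp7: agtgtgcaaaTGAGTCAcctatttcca

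These matches start between 95 and 35 bp upstream of the TSS (GRCm38, chromosome 9 for all but Mmp19 on chromosome 10 and Mmp9 on chromosome 2). Those on chromosome 9 all belong to the MMP gene cluster described above. The interval of the MMP share treats such neighbouring genes as independent, so it is likely too narrow. The base at N is A at Mmp20 and G or C at the other MMP genes shown. CpG ratios of these 9 promoters are 0 to 0.274. GGGCGG, the core letters of SP1 sites, was found in 14 of the 25 promoters with a peak, or 56.0% (34.9% to 75.6%), where all protein-coding genes with a promoter peak gave 65.5%. Without a peak it was in 51.7% of the 60, and over all protein-coding promoters in 45.4%. TTNNGCAA, a C/EBP-like sequence, was found in 1 of the 25 (Col13a1, 4% with an interval of 0.101% to 20.4%), against 7.12% of all protein-coding genes with a promoter peak. It was in 7 of the 60 and in 10.2% of all promoters. By family it was in 5 of 22 MMP promoters (22.7%, 7.82% to 45.4%), none of them of a gene with a promoter peak, and in 3 of 44 collagen promoters (6.82%). A match is a string of letters in a window, and its part in the presence or absence of a peak was not tested.

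Promoter CpG ratio was compared between the genes with and without a promoter peak. Its median was 0.605 over the 25 genes with a promoter peak (quartiles 0.369 and 0.739) and 0.379 over the 60 without (0.170 and 0.579). Over all protein-coding genes the medians were 0.766 and 0.434, both above those of the matrix genes. Matrix promoters are CpG-poor as a set: 30.6% have a ratio of at least 0.6, against 46.9% of all protein-coding promoters. Among the 26 genes at or above 0.6, 13 had a promoter peak, or 50% (29.9% to 70.1%, background at this ratio 37.8%). Of those 13, 12 had the peak within 1 kb of the principal TSS, and at Col4a1 it is 94605 bp away. Among the 59 genes below 0.6, 12 had a promoter peak, or 20.3% (11% to 32.8%, background 12.9%). Both intervals hold the background of their own CpG class. The 12 genes below 0.6 are Col19a1, Col4a3, Col4a4, Lamb3, Col18a1, Mmp14, Lama1, Fbn1, Col9a2, Col26a1, Mmp2 and Lamb2, and 9 of them had the peak within 1 kb of the principal TSS. This ratio describes the window at the principal TSS and not the peak. The promoter peaks of these 12 genes had CpG ratios of their own from 0.312 (Col18a1, principal TSS) to 0.859 (Col19a1).

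**Figure D4:**
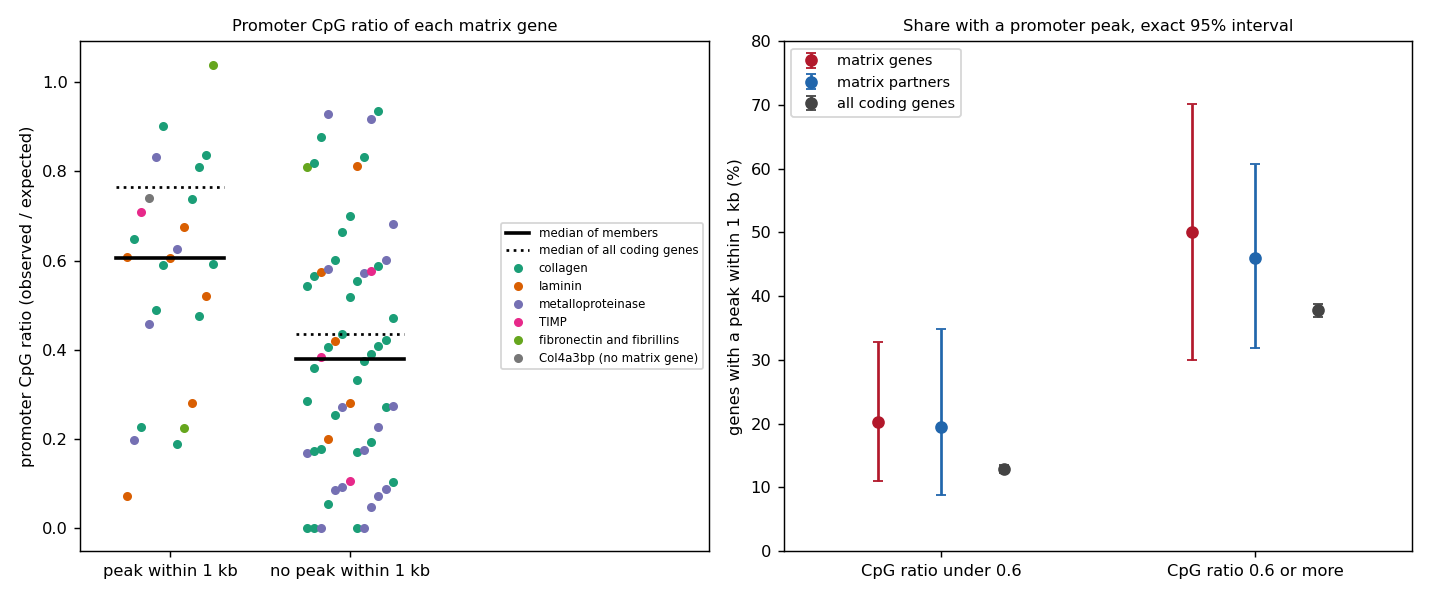
Left, the promoter CpG ratio of each matrix gene with and without a peak within 1 kb of a TSS, with medians of the matrix genes (solid) and of all protein-coding genes (dotted). Right, the percentage of genes with such a peak below and at or above a ratio of 0.6 with exact 95% binomial intervals, for matrix genes (red), other matrix assembly genes (blue) and all protein-coding genes (grey), in which the intervals of the matrix genes (20.3% and 50%) hold the values of all protein-coding genes (12.9% and 37.8%).

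Of the 28 pairs of a gene and a promoter peak, 19 had the midpoint at or downstream of the nearest TSS and 9 upstream, with a median offset of 166 bp downstream. The nearest TSS was that of the principal coding transcript for 11 pairs, of another coding transcript for 5 and of a noncoding transcript for 12. Counting TSSs of coding transcripts alone, 22 genes had a promoter peak, or 25.9% (17.0% to 36.5%, background 23.1%). Counting the principal TSS alone, 21 had one, or 24.7% (16.0% to 35.3%, background 20.8%). Of the 50 peaks, 5 lie within 1 kb of a TSS of another protein-coding gene: those at Col4a3 and Col4a4, Col4a3bp, Fbn1, Lamb3 and Mmp11.

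Per length of sequence over 3 kb from a TSS, the matrix genes had 1.75 peaks per Mb of intron (exact 95% Poisson interval 0.902 to 3.05). Over all protein-coding genes there were 3.11 per Mb (2.99 to 3.24). That rate lies just above the upper bound of the matrix genes, although the 2 intervals overlap, and the difference was not tested. The matrix genes held 6.87 Mb of such intron. Poisson intervals treat peaks as independent, but 5 of the 12 intron peaks are in Col23a1. With TSSs of coding transcripts alone 16 peaks fell in introns, for which no density was computed. In internal exons there were 1.84 per 100 kb (0.500 to 4.70) against 3.77, which the interval holds. Of the 12 intron peaks, 2 consist of at least 80% repeat-masked bases, and without them 10 remain. Median CpG content was 7.94 per 100 bp in promoter peaks, 4.79 in internal exon peaks and 2.09 in intron peaks, against 8.55, 4 and 1.87 over all protein-coding genes.

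Other genes of matrix assembly were counted in the same way. Of 91 genes 31 had a promoter peak, or 34.1% (24.5% to 44.7%), with the lower bound just under the background of 24.6%. In the high CpG class it was 46.0% of 50 genes and in the low class 19.5% of 41. Among enzymes that fold and crosslink collagen 5 of 20 had a promoter peak, including Lox, which crosslinks collagen and elastin (10.7), and P4hb, the beta subunit of collagen prolyl hydroxylase (10.3). Basement membrane partners had one in 5 of 12 genes, including the dystroglycan gene Dag1 (6.80) and the perlecan gene Hspg2 (4.95). Elastic fibre genes had one in 4 of 14, the largest at Ltbp4 (13.1). Integrins, the cell surface receptors for collagen, laminin and fibronectin, had one in 5 of 19 (Itga4, Itga11, Itgav, Itgb5 and Itgb8). The list of Adam and Adamts proteases, which leaves out some genes of both families, had one in 12 of 26, or 46.2% (26.6% to 66.6%). The largest was at Adamts2 (9.25), a procollagen processing enzyme. The interval of the Adam and Adamts list starts above the background and those of the other 4 lists hold it, which was not tested between lists. The lists were chosen with earlier results of these data known, so nothing is concluded from this difference.

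The 47 matrix genes without a peak in any class had the nearest midpoint at 10.9 to 745 kb from a TSS, with a median of 72.1 kb, and 17 of them had none within 100 kb. No peak in this list says that the authors' peak calling reported none there in 1 library. The list does not give the number of reads behind a peak or in the library, so no depth can be set beside a missing peak.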

How the data were processed

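TET2 ChIP-seq of differentiated primary adipocytes was analysed from the deposited peak list of 1 TET2 library, which the authors called against 1 input library. The authors trimmed reads with NGS QC Toolkit, aligned them with bowtie1 and ran MACS2 (2.1.0 in the submitters' processing notes) at a stated p of 1e-05. The deposited value of each peak is its −log10 p as the peak caller gave it, and 2182 of 14103 peaks are below 5. The stated p corresponds to 5, so the cutoff that was applied cannot be read from these values. The study's reporting summary gives an amount of paired-end sequence, but not the reads mapped in each library, and the list holds no read numbers, so the depth behind a peak is unknown. The processing notes name mm10 (GRCm38) and the methods GRCm39, and GRCm38 was used throughout, in which 2 peaks hold an unsequenced base. Interval starts were read as 1-based.

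Peaks were placed by midpoint with GENCODE M21, in the order within 1 kb of a TSS of the gene, 1 to 3 kb, internal exon, intron. The principal transcript was the APPRIS principal with the longest coding sequence. Sequences came from the RefSeq GRCm38.p6 genome, without untranslated bases. Shares have exact binomial (Clopper-Pearson) and densities exact Poisson intervals of 95%. The named genes were every gene with a promoter peak, the 10 largest peaks, every gene with 3 or more peaks and a list of adipose matrix genes. Members and lists were chosen with earlier results of these data known. Python 3.11.15, scipy 1.17.1, pysam 0.24.0 and matplotlib 3.10.9 were used. The placement was tested on simulated positions drawn from the same gene models, which checks the assignment of classes but not the models themselves. Alternatives concerned thresholds, windows, TSS sets, repeats and placement. The input library had no file of its own here and was not analysed.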

Additional observations from a re-analysis of the deposited data

How the results depend on the processing

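Of 50 values under alternatives, 41 stayed within 1.5 times of the value reported and 9 moved further. Only the CpG ratio result is a difference that could change sign. It was run under −log10 p thresholds of 5 and 8 alone and kept its sign. Background shares were recomputed for the choice of TSS only, so the other alternatives do not test comparisons with all protein-coding genes. Keeping only peaks with a −log10 p of at least 8 left 9 matrix genes with a promoter peak, 13 with a peak in any class, 9 promoter peaks, 3 peaks at 1 to 3 kb, 1 in an internal exon and 0 in introns, and 12 matrix partner genes with a promoter peak. Fewer peaks pass that threshold by construction. With TSSs of coding transcripts alone, 1 peak was left at 1 to 3 kb and 7 fell in internal exons, because peaks near starts of noncoding transcripts move to the exon or intron they lie in. A threshold of 5 moved none of the 9 results by over 1.5 times. Nor did placing a peak by any of its bases or leaving out repeat-masked peaks (7 results each, not the median −log10 p or the CpG ratio), leaving out Col4a3bp (7 results, not the CpG ratio or the partner genes), or windows narrower and wider than 1 kb (2 results, the matrix and partner genes with a promoter peak). No paired analysis was possible because a single TET2 library was compared with a single input.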
